A study of Mus musculus and Rattus norvegicus with 53 samples.

Results

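The comparison described here sets Schwann cells (SCs) of the distal stump, taken 4 days after the sciatic nerve was cut, against SCs of intact nerves, each library being made from a single nerve. Its members were chosen by their labels alone: 3 day 4 distal libraries and 5 intact libraries, 8 of the 53 samples of the series. All animals were young adult mice of both sexes that carried a tdTomato reporter switched on by a Cre of the SC lineage, so that SCs and any other cell in which this Cre had ever been active were red, and the red cells were sorted by flow cytometry. By their labels the day 4 libraries came from 3 animals and the intact libraries from 5 others, and no further treatment or allele is given for either group. By the study's methods, intact nerves were taken from the side opposite to a cut, so that these animals had been operated on as well. RNA was amplified by Smart-seq2 and sequenced. The intact libraries carry the replicate numbers 0, 1, 3, 4 and 5 and the day 4 libraries the numbers 0, 1 and 2, and values below are given in that order.

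A myelinating SC wraps a segment of one axon in compact myelin, which calls for large amounts of a few membrane proteins and of cholesterol. When the axon is cut, the nerve beyond the cut degenerates, SCs there stop making myelin, turn on genes of immature and repair cells, divide and help to clear debris, and macrophages enter the nerve and take part in the clearance. Day 4 falls within this period of breakdown.

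Counts on genes were between 9240883 and 18429026 per intact library and between 11298498 and 18025247 per day 4 library. Intact replicates 0 and 1 stood apart from the rest. They held 10572 and 10042 genes with at least 1 count against 12690 to 15060 in the other 6 libraries, and their 100 most abundant genes took 51.0% and 52.8% of the counts against 20.3% to 28.4% elsewhere. The mean number of genes detected was 12775 ± 2295 (SD, n = 5) in intact and 13239 ± 913 (SD, n = 3) at day 4 (two-sided exact permutation test, p = 0.714, where 0.0357 is the smallest p that the 56 arrangements allow). The animals' sex moved with the group. Xist, the RNA that silences one X chromosome in females, was at 0 to 0.634 CPM (read counts scaled to a common library size) in intact replicates 0, 1, 3 and 4, at 156.9 CPM in intact replicate 5 and at 240.1 to 386.1 CPM at day 4, and the Y-linked gene Ddx3y was at 51.8 to 194.3 CPM in the first 4 of these and at most 0.102 CPM in the others.

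With edgeR's quasi-likelihood test, 268 of 15519 genes (1.73%) passed an adjusted p of 0.05, of which 188 (1.21%) were higher at day 4 and 80 (0.515%) were lower. All but 1 of them differed more than 2.5-fold. The counts of calls in the gene lists below are to be read beside these shares of all genes tested. Every day 4 library lay above every intact library for 186 of the 188 higher genes, and below for 71 of the 80 lower genes. Over all genes tested, such separation was seen upward in 6.90% and downward in 3.60%. The called genes were picked by a test on these same libraries, so their separation gives the calls no further support. The count fell to 32 when the level of Xist entered the fit as a covariate and was 184 without intact replicates 0 and 1, 134 without day 4 replicate 1 and 95 without day 4 replicate 2. All 268 genes kept their direction in these fits. Of the 71 called genes given here with values, 17 passed with the covariate, 35 passed without those replicates, 27 passed whichever single library was left out, and 9 passed under all 17 alternatives: Fbn2, Cd44, Vcan, Ctss, Lyz2, C1qb, Slc37a2, Cldn5 and H19. In bulk libraries fewer cells of a type and less RNA per cell cannot be told apart, and this holds for every result below.

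Of 30 genes of compact myelin and the SC myelin membrane, 8 passed the test as lower, none rose, 22 did not pass, and 17 had every day 4 library below every intact one. Their median log2 difference was -2.66, against -0.06 over all genes tested. Pmp22, a protein of compact myelin (mm9, chr11:62942484-62973049, plus strand), was at 18155, 5608, 1918, 8470 and 3580 CPM in intact libraries and at 324, 373 and 318 CPM at day 4. The intact libraries were widely spread, yet the lowest of them was far above all of day 4, and the gene fell by 4.48 ± 0.71 on the log2 scale (SE, edgeR adjusted p = 0.000626).

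Periaxin (Prx), which links the SC membrane to its cytoskeleton, was at 274, 267, 207, 579 and 195 CPM in intact libraries and at 2.08, 6.99 and 0.728 CPM at day 4 (log2 difference -6.55 ± 1.49, edgeR adjusted p = 0.0164). Mbp, which holds the inner faces of the myelin membrane together, was at 9764, 4018, 3894, 5552 and 1620 CPM against 185, 77.9 and 237 CPM. In both genes the groups were wide apart. Others that fell were Pllp (log2 difference -5.63), Mal (-4.12), Cd9 (-3.94) and Ndrg1 (-3.06), of which Ndrg1 also passed with the Xist covariate. Mag, an adhesion protein of the membrane facing the axon, was at 105, 76.9, 28.7, 147 and 35.7 CPM in intact libraries and at 1.89, 0 and 0.437 CPM at day 4. Although the groups did not overlap, its test was not passed (edgeR adjusted p = 0.134). Exons of Prx overlap an antisense gene and those of Cd9 and Ndrg1 do as well, and the counting is not stated to have used the strand.

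No regulator of myelination passed the test among the 17 transcription factors listed, and their median log2 difference was -0.01. Egr2, which drives the myelin genes, was at 92.2, 5.2, 65.1, 133 and 50.7 CPM in intact libraries and at 39.9, 23.8 and 3.71 CPM at day 4, so that the groups overlapped (edgeR adjusted p = 0.345). Pou3f1, which acts before it, was at 4.44 to 16.9 CPM and at 2.81 to 13.9 CPM. Sox10, the factor that defines the SC lineage, was at 29.2, 40.0, 31.2, 107 and 21.1 CPM in intact libraries and at 64.8, 37.7 and 36.1 CPM at day 4. S100b, a calcium-binding protein of SCs, was at 31.6 to 58.5 CPM and at 34.3 to 80.3 CPM, and Erbb3, the neuregulin receptor, at 2.45 to 50.3 CPM and at 5.35 to 47.7 CPM. For these 3 genes all groups overlapped, and none of their differences exceeded 0.27 on the log2 scale, with SEs of 0.65 to 1.03. Over the 10 genes of the SC identity list, 1 passed the test, and the summed level was 1401 to 5644 CPM in intact libraries and 751 to 922.1 CPM at day 4.

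**Figure D1:**
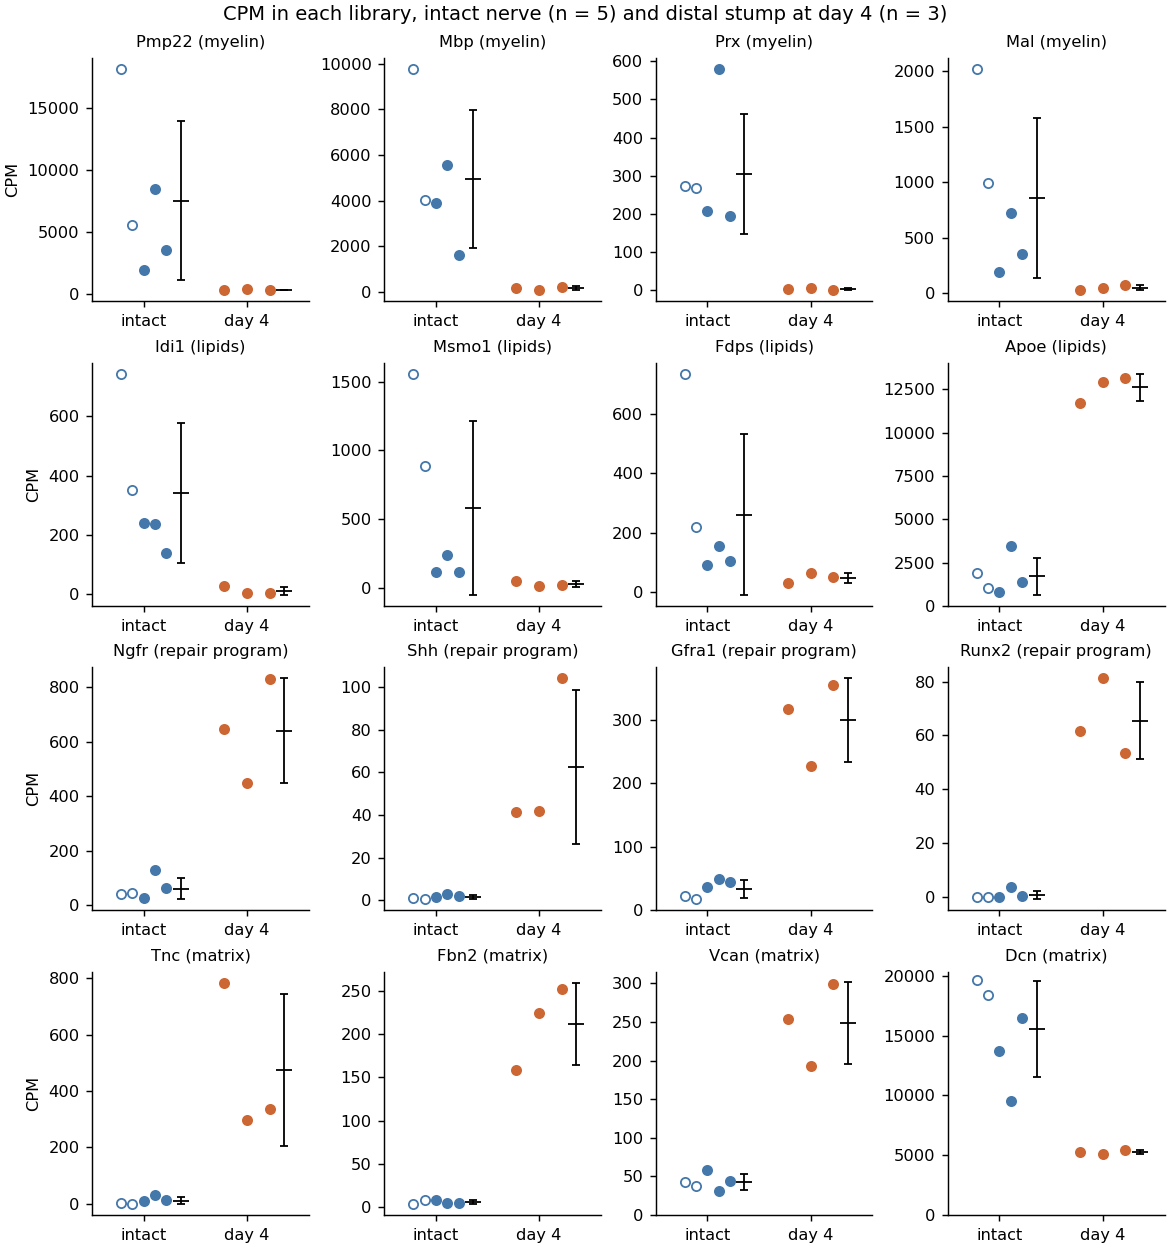
CPM of 16 genes in each library, with intact nerve in blue (n = 5, open symbols for replicates 0 and 1) and distal stump at day 4 in orange (n = 3), and the mean with its SD beside the points. In all 16 panels the groups do not overlap, and each of these genes passed the test.

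Of 24 genes of cholesterol synthesis tested, 3 fell and none rose, and 23 had a negative log2 difference, with a median of -1.76. Idi1, which makes one of the isoprene building blocks, was at 745, 352, 238, 237 and 138 CPM in intact libraries and at 26.7, 1.47 and 3.79 CPM at day 4 (log2 difference -5.00 ± 1.07, edgeR adjusted p = 0.0108). Msmo1, an oxidase that removes methyl groups from the sterol ring, was at 1559, 887, 112, 239 and 116 CPM against 53.0, 12.6 and 21.8 CPM. Its intact level was far higher in replicates 0 and 1 than in the other 3, which alone still lay above day 4. Fdps, which joins the building blocks, was at 89.9 to 736 CPM and at 30.5 to 63.4 CPM (log2 difference -2.45). Without intact replicates 0 and 1, Msmo1 and Fdps did not pass, whereas Idi1 did. With single libraries left out, 0 to 4 genes of the cholesterol list passed as lower. In fatty acid and sphingolipid synthesis, 20 of 26 genes had a negative difference and none passed.

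The cholesterol genes and, further below, the mitosis genes each had mostly one sign, so their promoters are shown for members that passed the test. RefSeq's table of promoters (GRCm38.p6) held 20 start sites of 17 of the 25 cholesterol genes, Fdps not among them, and 53 start sites of 50 of the 60 mitosis genes. In the 250 bases before the start, the CCAAT box (CCAAT, read on both strands) was found in 16 of the 20 cholesterol windows (80.0%) and 40 of the 53 mitosis windows (75.5%), against 33.8% of all 32851 windows. The core of the sterol element (CACNCCAC, both strands) was found in 3 cholesterol windows (15%) and 5.29% of all windows, and the CHR element of cell cycle genes (TTTGAA, both strands) in 24 mitosis windows (45.3%) and 16.0% of all windows. The windows of Idi1 (chr13:8885356-8885605, plus strand), Msmo1 (chr8:64733579-64733828, minus strand) and Bub1 (chr2:127831860-127832109, minus strand) read 5′ to 3′ as follows, with CCAAT boxes of either strand in capitals.
Idi1: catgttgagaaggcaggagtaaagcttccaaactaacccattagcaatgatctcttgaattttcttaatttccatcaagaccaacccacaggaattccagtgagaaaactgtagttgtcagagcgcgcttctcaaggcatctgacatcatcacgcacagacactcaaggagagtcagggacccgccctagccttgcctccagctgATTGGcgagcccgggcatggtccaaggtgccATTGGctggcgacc
Msmo1: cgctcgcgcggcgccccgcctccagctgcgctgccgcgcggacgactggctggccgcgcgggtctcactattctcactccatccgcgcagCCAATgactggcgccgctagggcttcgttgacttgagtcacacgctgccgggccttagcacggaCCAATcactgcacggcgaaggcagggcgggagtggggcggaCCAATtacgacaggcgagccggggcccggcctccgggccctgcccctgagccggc
Bub1: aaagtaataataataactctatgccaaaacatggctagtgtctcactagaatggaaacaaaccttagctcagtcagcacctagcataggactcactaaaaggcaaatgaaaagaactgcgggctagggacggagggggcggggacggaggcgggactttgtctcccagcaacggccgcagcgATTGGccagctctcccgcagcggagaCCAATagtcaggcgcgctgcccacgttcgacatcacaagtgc
The boxes began at -45 and -14 from the start in Idi1, at -160, -96 and -55 in Msmo1 and at -68 and -42 in Bub1, and neither of the other motifs was found in these windows.

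Of 43 genes of immature and repair SCs tested, 9 rose, 2 fell and 32 did not pass, and the median log2 difference was 1.79. Ngfr, the low-affinity neurotrophin receptor (p75) that marks SCs without myelin (chr11:95430132-95449049, minus strand), was at 39.8, 45.6, 27.1, 127 and 61.0 CPM in intact libraries and at 645, 447 and 831 CPM at day 4 (log2 difference 3.41 ± 0.77, edgeR adjusted p = 0.0155). Every day 4 library was several times above the highest intact one. Shh, the hedgehog ligand, was at 0.837, 0.359, 1.37, 3.00 and 1.78 CPM in intact libraries and at 41.6, 42.0 and 104 CPM at day 4 (5.36 ± 1.11, edgeR adjusted p = 0.00831). Gfra1, the receptor that binds GDNF, was at 21.3, 16.7, 36.7, 48.6 and 44.6 CPM against 317, 227 and 356 CPM (3.16 ± 0.62, edgeR adjusted p = 0.00517).

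The transcription factor Runx2 was at 0 in intact replicates 0, 1 and 3 and at 3.67 and 0.306 CPM in replicates 4 and 5, and at 61.7, 81.2 and 53.4 CPM at day 4. Vim, the intermediate filament of immature SCs and of mesenchymal cells, was at 488 to 998 CPM in intact libraries and at 1367, 3493 and 3110 CPM at day 4. Btc, a ligand of EGF receptors, was at 0 to 7.17 CPM and at 49.7, 41.0 and 115 CPM. These 3 genes were apart in all libraries and passed the test, as did Tnc, Fgf5 and Nes. The 2 that fell were Id1 (22.1 to 145 CPM in intact libraries, 3.42 to 17.1 CPM at day 4) and Id3, whose groups overlapped, both of which encode inhibitors of helix-loop-helix factors.

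Several genes known for the SC injury response did not pass. Gdnf, a survival factor for neurons, was at 0 in 3 intact libraries and at 2.65 and 0.102 CPM in replicates 4 and 5, and at 13.9, 12.7 and 37.5 CPM at day 4 (edgeR adjusted p = 0.121). Without intact replicate 4 its adjusted p was 0.0251. Atf3, a stress-induced transcription factor, was at 16.7, 52.7, 3.86, 76.3 and 50.1 CPM against 212, 281 and 577 CPM (edgeR adjusted p = 0.113). The groups did not overlap in either gene. Jun, the regulator of the repair state, was at 182, 24.4, 690, 753 and 589 CPM in intact libraries and at 428, 441 and 608 CPM at day 4, and its low values were those of intact replicates 0 and 1. Sox2 was at 0 to 11.9 CPM and 5.04 to 44.0 CPM, and Gap43 at 0.279 to 21.7 CPM and 19.5 to 45.6 CPM, with overlap in both. Olig1 was at most 2.85 CPM in any of the 8 libraries. Among cell adhesion genes, Ncam1 was at 11.6 to 332 CPM and 5.75 to 106 CPM, and L1cam at 0 to 73.7 CPM and 31.2 to 107 CPM. Of 23 AP-1 and immediate early genes, 2 rose. One of them was Fosl2, with 1.43 to 44.6 CPM in intact libraries, 73.2 to 188 CPM at day 4.

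Macrophage transcripts had more members that rose than any other list. All 18 listed macrophage genes had a positive log2 difference, 14 passed the test, and 15 were above all intact libraries, with a median of 3.96. Their summed level was 578.5, 1191, 359.6, 482.4 and 1663 CPM in intact libraries and 16983, 14554 and 15983 CPM at day 4, with no overlap. Ctss, a lysosomal protease of phagocytes (chr3:95330708-95360325, plus strand), was at 61.4, 34.4, 19.8, 49.1 and 105 CPM in intact libraries and at 2044, 1370 and 1676 CPM at day 4 (log2 difference 4.97 ± 0.66, edgeR adjusted p = 8.74e-05). Lyz2, the lysozyme of myeloid cells, was at 153, 86.3, 129, 176 and 665 CPM against 9380, 5323 and 7258 CPM. C1qb, a chain of the first complement component, was at 20.6 to 176 CPM against 1004 to 1986 CPM. Itgam, the integrin CD11b, was at 0 to 4.08 CPM against 98.3 to 222 CPM.

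The genes with the largest increases by the rule included others of myeloid cells. Tlr13, a receptor for bacterial RNA, had no count in any intact library and was at 72.5, 28.5 and 54.2 CPM at day 4, at least 182-fold higher when intact is set to a floor of 3 counts per library, which covers counting error only. Aoah, which inactivates bacterial lipopolysaccharide, was likewise at 0 in intact libraries and at 35.0, 19.4 and 35.7 CPM at day 4, at least 105.7-fold higher. Slc37a2, a sugar phosphate transporter, was at most 0.714 CPM in intact libraries and at 50.6, 73.9 and 68.0 CPM at day 4 (8.22 ± 0.88, edgeR adjusted p = 1.55e-06). Among neutrophil and lymphocyte genes the summed level was 2.59 to 16.5 CPM and 50.3 to 67.9 CPM, and Csf3r (at most 0.837 CPM, then 27.3 to 54.5 CPM) and Cd79b passed. Most of the day 4 sums was Csf3r alone, with 54.5, 27.3 and 49.5 CPM of 67.9, 50.3 and 51.5 CPM. Of the 8 members tested, 4 had a positive and 3 a negative log2 difference. Cd79b was at 0 in day 4 replicate 2, and S100a9 and the 3 Cd3 genes were at 0 in all 8 libraries. The summed macrophage level was higher in the same 3 day 4 libraries in which the other genes that rose were higher, and its part in those increases was not tested.

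**Figure D2:**
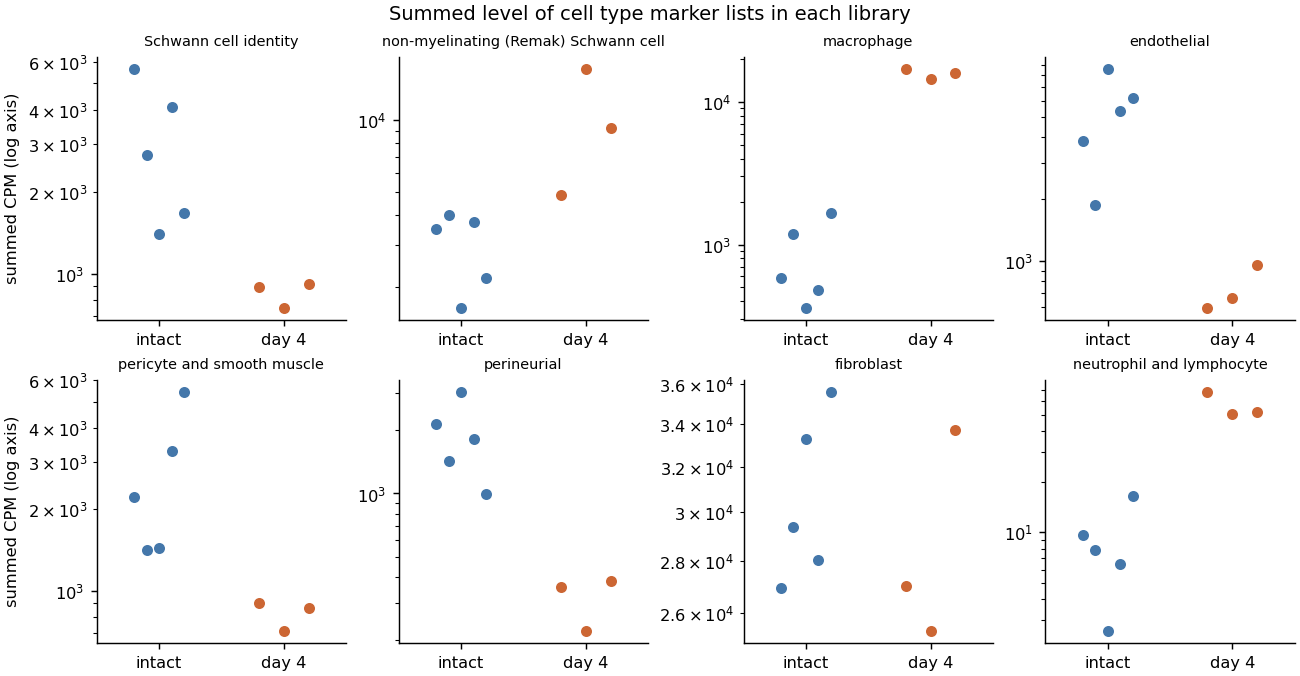
Summed CPM of 8 cell type marker lists in each library on log axes, with intact nerve in blue (n = 5) and distal stump at day 4 in orange (n = 3). The macrophage and the neutrophil and lymphocyte lists are higher in all 3 day 4 libraries than in any intact library, the endothelial, perineurial, pericyte and SC identity lists are lower in all 3, and the fibroblast list overlaps. Without the member Dcn the fibroblast sums are higher in all 3 day 4 libraries, and without Cldn5 and Cdh5 the endothelial sums overlap. Csf3r alone makes up most of the neutrophil and lymphocyte sums at day 4.

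Of 35 phagocytosis and lipid handling genes, 6 rose, none fell and 29 did not pass, and of 44 lysosome and autophagy genes, 7 rose, 1 fell and 36 did not pass, with medians of 1.17 and 0.98. Apoe, the carrier of cholesterol between cells, was at 1912, 1032, 791, 3472 and 1371 CPM in intact libraries and at 11706, 12952 and 13182 CPM at day 4 (log2 difference 2.88 ± 0.67, edgeR adjusted p = 0.0198). Cd68, a lysosomal membrane protein abundant in macrophages, was at 0.140 to 60.2 CPM against 537, 418 and 454 CPM. Lipa, which splits cholesterol esters in the lysosome, was at 43.0 to 154 CPM against 429, 312 and 396 CPM, and Pld3 at 40.4 to 139 CPM against 501, 363 and 431 CPM. Ctsd, the main aspartic protease of the lysosome, was at 711, 303, 986, 656 and 583 CPM and then at 7099, 3552 and 5351 CPM (3.04 ± 0.56, edgeR adjusted p = 0.00365). Hexa and Gusb, which cut sugars off lipids and glycans, were at 226 to 399 CPM and 36.4 to 91.3 CPM in intact libraries and at 790 to 1398 CPM and 209 to 353 CPM at day 4. The gene that fell was Gabarapl1, of the autophagosome, with 138 to 523 CPM and 68.5 to 90.3 CPM. Genes of all these kinds are active in macrophages as in SCs, and the macrophage list rose in the same 3 libraries.

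In the chemokine and cytokine list, 2 of 40 genes rose, with a median log2 difference of 1.54. Ccl4 was at 0 to 2.11 CPM in intact libraries and at 25.1, 77.2 and 36.4 CPM at day 4. Cxcl5, which attracts neutrophils, had a single count over the 5 intact libraries and was at 24.5, 4.66 and 1.97 CPM at day 4. Ccl2, the main attractant of monocytes, was at 140, 82.1, 13.7, 26.5 and 83.5 CPM and at 126, 269 and 268 CPM, and did not pass (edgeR adjusted p = 0.400). Of 41 MHC and interferon genes, Ciita, the activator of MHC class II, was the only one to pass. It rose from at most 0.153 CPM in intact libraries to 2.85 to 22.8 CPM at day 4. Neither Myc (0 to 55.8 CPM, then 19.7 to 87.9 CPM) nor any of the 47 listed genes of MYC and ribosome biogenesis passed.

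Of 60 genes of mitosis and cytokinesis, 2 rose by the test. A positive log2 difference was seen in 56 of them, with a median of 2.27, and 27 were above all intact libraries. Bub1, a kinase of the spindle checkpoint, had 1 count in all intact libraries together and was at 10.0, 27.5 and 7.79 CPM at day 4. Spc24, of the kinetochore, was at 3.49, 5.74, 5.92, 4.94 and 3.01 CPM and at 19.7, 35.8 and 54.5 CPM (2.99 ± 0.58, edgeR adjusted p = 0.00501). Kif14, a motor protein needed for the last step of division and one of the 12 largest increases, was at 0 in all intact libraries but only at 0.291 CPM in day 4 replicate 2 (10.4 and 20.0 CPM in the other two). Of 50 genes of DNA replication and S phase, 13 were above all intact libraries and 2 rose. Mcm5, of the replicative helicase, was at 0.140, 0, 11.6, 13.2 and 10.2 CPM against 54.1, 45.7 and 138 CPM, and Tk1, which makes a DNA precursor, at 0 to 10.6 CPM against 29.9 to 61.5 CPM. Both were lowest in intact replicates 0 and 1, the libraries with the fewest genes detected.

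For Mki67 and Top2a, the usual markers of dividing cells, 1 intact library decided the test. Mki67 was at 0, 0, 50.5, 1.53 and 0.153 CPM in intact libraries and at 124, 115 and 178 CPM at day 4, and Top2a at 3.63, 0, 65.3, 9.01 and 9.84 CPM and then 106, 186 and 122 CPM. Replicate 3 was the high intact library in both, and still below day 4. With all libraries the edgeR adjusted p values were 0.145 and 0.0792, and without intact replicate 3 they were 0.00122 and 0.00517.

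Of 38 matricellular and provisional matrix genes, 8 rose, 1 fell and 19 were above all intact libraries, with a median log2 difference of 1.29. Fbn2, the fibrillin of developing tissue, was at 4.32, 8.43, 8.40, 4.89 and 4.84 CPM in intact libraries and at 159, 224 and 252 CPM at day 4 (5.10 ± 0.55, edgeR adjusted p = 1.55e-06). The highest intact library was far below the lowest of day 4. Tnc, the matricellular protein tenascin-C (chr4:63620819-63681760, minus strand, with an antisense gene over some of its exons), was at 1.95, 0.179, 8.19, 29.7 and 13.8 CPM against 784, 298 and 338 CPM (5.44 ± 0.85, edgeR adjusted p = 0.000611). Vcan, the proteoglycan versican, was at 43.0, 36.9, 58.2, 31.7 and 43.5 CPM against 254, 193 and 299 CPM (2.54 ± 0.42, edgeR adjusted p = 0.00111). Cd44, the hyaluronan receptor, was at 54.1 to 115 CPM against 512, 338 and 578 CPM (2.42 ± 0.38). The other 4 that rose were Fn1, Fbn1, Loxl2 and Thbs2. Dcn, a small proteoglycan abundant in fibroblasts, was at 19615, 18413, 13675, 9546 and 16500 CPM and at 5252, 5119 and 5468 CPM, and fell by 1.56 ± 0.39 (edgeR adjusted p = 0.0333).

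Of 36 collagen genes, Col8a1 (83.2 to 470 CPM, then 609 to 980 CPM) and Col5a2 (162 to 515 CPM, then 947 to 1646 CPM) rose and 11 were above all intact libraries. Of 33 laminins and integrins, Itgb3, the partner chain of the vitronectin receptor, was the only one to rise (2.79 to 40.3 CPM, then 65.1 to 216 CPM), and none of 39 metalloproteinases and inhibitors passed. Fibroblast markers had a summed level of 26942 to 35574 CPM in intact libraries and of 25348 to 33715 CPM at day 4, and of the 12 only Dcn passed. Dcn made up most of the intact sum in replicates 0 and 1 only, with 19615 of 26942 and 18413 of 29370 CPM. In replicates 3, 4 and 5 it was 13675 of 33271, 9546 of 28033 and 16500 of 35574 CPM. The other 11 summed to 7327, 10957, 19596, 18486 and 19073 CPM in intact libraries and to 21772, 20229 and 28247 CPM at day 4, so that they were above intact in all 3 day 4 libraries, as the matrix genes that rose were. Their part in the matrix result was not tested.

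Of 46 genes of junctions and axon-glia adhesion, 4 fell, none rose and 42 did not pass, with a median log2 difference of -1.24. Cldn5, a claudin known from endothelial tight junctions (chr16:18776940-18778353, plus strand), was at 2794, 1113, 844, 1401 and 1514 CPM in intact libraries and at 43.5, 23.6 and 112 CPM at day 4 (-4.68 ± 0.91, edgeR adjusted p = 0.00501). Cldn1, the claudin of the perineurium, was at 313, 422, 507, 338 and 155 CPM against 86.1, 19.5 and 41.3 CPM. F11r, an adhesion molecule of tight junctions, was at 232 to 466 CPM against 38.1 to 79.2 CPM, and Tjp1, their scaffold, at 104 to 241 CPM against 23.3 to 73.0 CPM. Cdh1, the cadherin of contacts within the myelin sheath of one SC, had no count at day 4 and was at 3.21, 28.0, 6.66, 49.9 and 11.7 CPM in intact libraries, at least 95.8-fold lower with the same floor, and did not pass (edgeR adjusted p = 0.0953).

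Summed markers of barrier-forming cells are given beside these genes. The 12 endothelial genes summed to 1872 to 8579 CPM in intact libraries and 594.6 to 957.6 CPM at day 4, and all 12 had negative differences, with Cldn5 and Egfl7 passing. Cldn5 and Cdh5 belong to both the endothelial and the junction list, and without them the endothelial sums overlapped, at 674.9 to 7614 CPM in intact libraries and 532.2 to 794.4 CPM at day 4. Cldn5 did not follow the other 10 endothelial genes across intact libraries. It was highest in replicate 0 (2794 CPM), where they summed to 996.1 CPM, and lowest in replicate 3 (844 CPM), where they summed to 7614 CPM. Which cells its RNA came from was not tested. The 8 perineurial genes summed to 989.5 to 3042 CPM and 221 to 380.7 CPM, with Cldn1 and Slc2a1 passing, and without Cldn1, which is in the junction list too, to 834.7 to 2535 CPM and 201.5 to 339.4 CPM. The 10 pericyte and smooth muscle genes summed to 1409 to 5429 CPM and 709.7 to 900 CPM, with Tagln passing. Their part in the fall of the junction genes was not tested. Slc2a1, the glucose transporter GLUT1 of barriers, was at 1336, 486, 1248, 700 and 506 CPM against 103, 66.1 and 118 CPM. It was also 1 of 3 genes that fell in the list of 32 for glycolysis and hypoxia response, beside Ndrg1 and the lactate transporter Slc16a1. The median log2 difference of that list was 0.08.

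In the Remak (non-myelinating) SC list, Ngfr rose and Scn7a, a sodium channel, fell from 1156, 692, 105, 516 and 132 CPM to 69.7, 58.4 and 56.8 CPM. Of 53 axon guidance genes 1 rose, a share near the 1.21% of all genes tested. This gene, Sema4f, was at most 2.14 CPM in intact libraries and at 60.4, 29.9 and 15.6 CPM at day 4. Stress genes went both ways. Hmox1, the heme oxygenase induced by oxidants (17.6 to 49.9 CPM, then 90.3 to 285 CPM), and Pdia6, a folding enzyme of the endoplasmic reticulum (217 to 401 CPM, then 565 to 1385 CPM), rose, whereas the heat shock genes Hspb1 (57.1 to 261 CPM, then 14.0 to 48.5 CPM) and Dnajb1 (73.2 to 211 CPM, then 18.2 to 54.5 CPM) fell. None of 43 TGFb, BMP and SMAD genes passed, and Tgfb1 was at most 2.38 CPM in any library. In oxidative phosphorylation, 53 of 56 genes had a negative log2 difference, with a median of -0.79, but none passed the test and none separated the groups. Among the largest decreases by the rule were Gstm7, a glutathione transferase (18.3 to 86.6 CPM in intact libraries), and the phosphatase Dusp26 (18.5 to 49.6 CPM), both without a count at day 4 and thus at least 230.8-fold and 159.3-fold lower. Aqp7, a channel for glycerol and water (29.6 to 136 CPM, then at most 0.339 CPM), and Lmo1, a LIM-domain cofactor (7.92 to 158 CPM, then 0.291 to 2.5 CPM), were others.

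**Figure D3:**
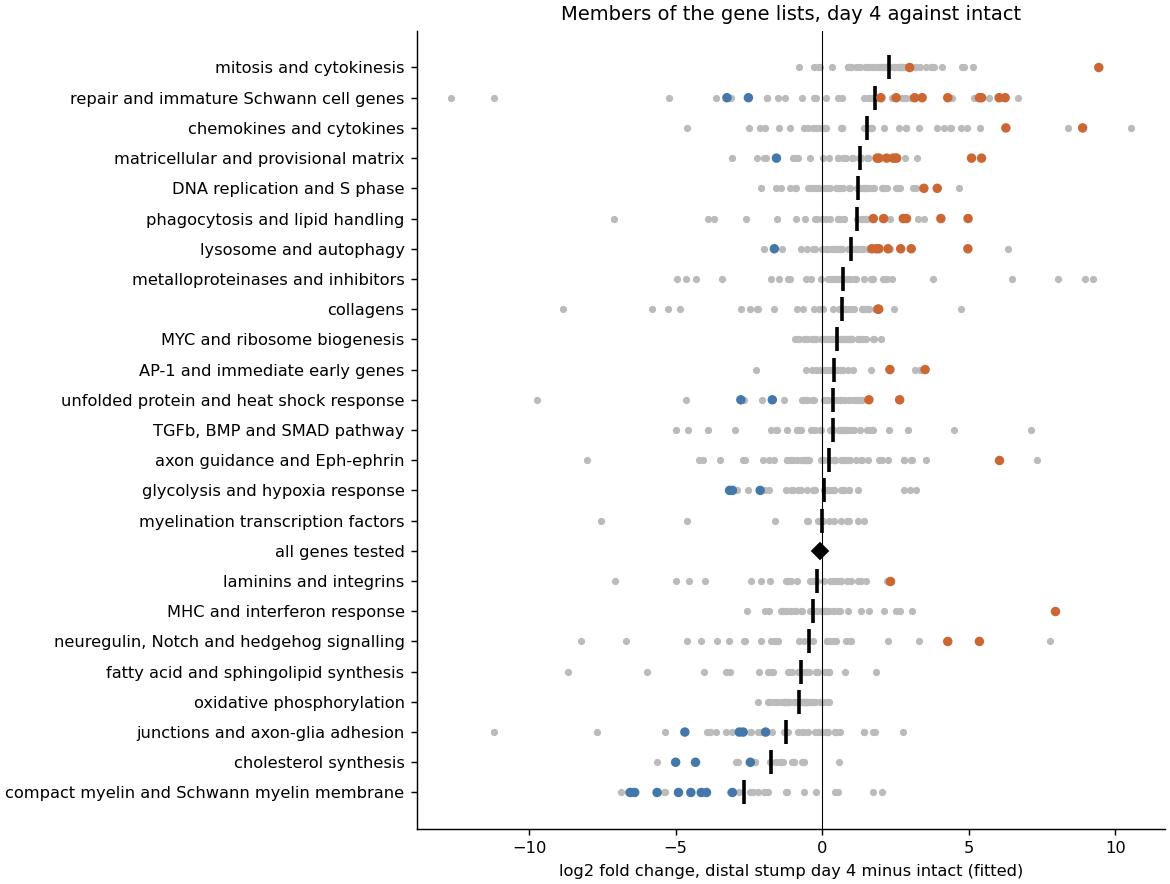
Fitted log2 difference (day 4 minus intact) of each member of 24 gene lists, in orange or blue where a member passed an adjusted p of 0.05 and in grey where it did not, with a bar at the median of each list and a diamond at the median of all genes tested (-0.06). The mitosis list has the highest median (2.27) with 2 members called, and the myelin list the lowest (-2.66) with 8.

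Setting day 4 beside the neighbouring days asks when these levels were reached. Against the 3 distal libraries of day 2, 1 gene passed (0.00644% of those tested), and against those of day 6 none did (0% of 15519 genes), with edgeR's test. At an unadjusted p of 0.05 the counts were 1259 and 749, with DESeq2 354 and 259, and with limma's voom 100 and 1. Day 2 replicate 0 resembled intact replicates 0 and 1. It held 10306 genes with at least 1 count, and its 100 most abundant genes took 54.7% of the counts. With 3 libraries a day, 1 of them of this kind at day 2, few calls do not show that levels were alike. The gene that differed from day 2 was H19, an imprinted non-coding RNA of embryonic tissue that lies outside the rule for named genes and was chosen after its values were seen (chr7:149761434-149764048, minus strand, host of the microRNA Mir675). It was at 44.4, 16.5, 47.1, 44.6 and 25.8 CPM in intact libraries, at 39.0 ± 26.3 CPM at day 2 (SD, n = 3), and at 429, 865 and 681 CPM at day 4, and then at 389 ± 44.7 CPM at day 6 (SD, n = 3). The difference of day 4 from day 2 was 4.07 ± 0.69 on the log2 scale (edgeR adjusted p = 0.0281), and that from intact was 4.20 ± 0.57 (adjusted p = 9.57e-05). The call against day 2 was lost when any one of the 3 day 2 libraries, or day 4 replicate 1 or 2, was left out.

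Pmp22 was at 1208 ± 254 CPM at day 2 (SD, n = 3), 338 ± 30.3 CPM at day 4 and 414 ± 202 CPM at day 6. Shh had its highest mean at day 2 (162 ± 63.7 CPM, against 62.6 ± 36 CPM at day 4), and Ctss had its at day 4 (1086 ± 400 CPM at day 2, 1697 ± 338 CPM at day 4, 819 ± 376 CPM at day 6). None of these steps passed a test. The summed macrophage level was 5900 to 8849 CPM at day 2 and 3289 to 15850 CPM at day 6, beside 14550 to 16980 CPM at day 4, so that day 4 lay above all of day 2 and overlapped with day 6. Id1 stood at 89.8 ± 40.6 CPM at day 2 and 8.74 ± 7.32 CPM at day 4, and Tagln, a smooth muscle gene, at 806 ± 954 CPM and 65.5 ± 15.4 CPM, neither of which passed.

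**Figure D4:**
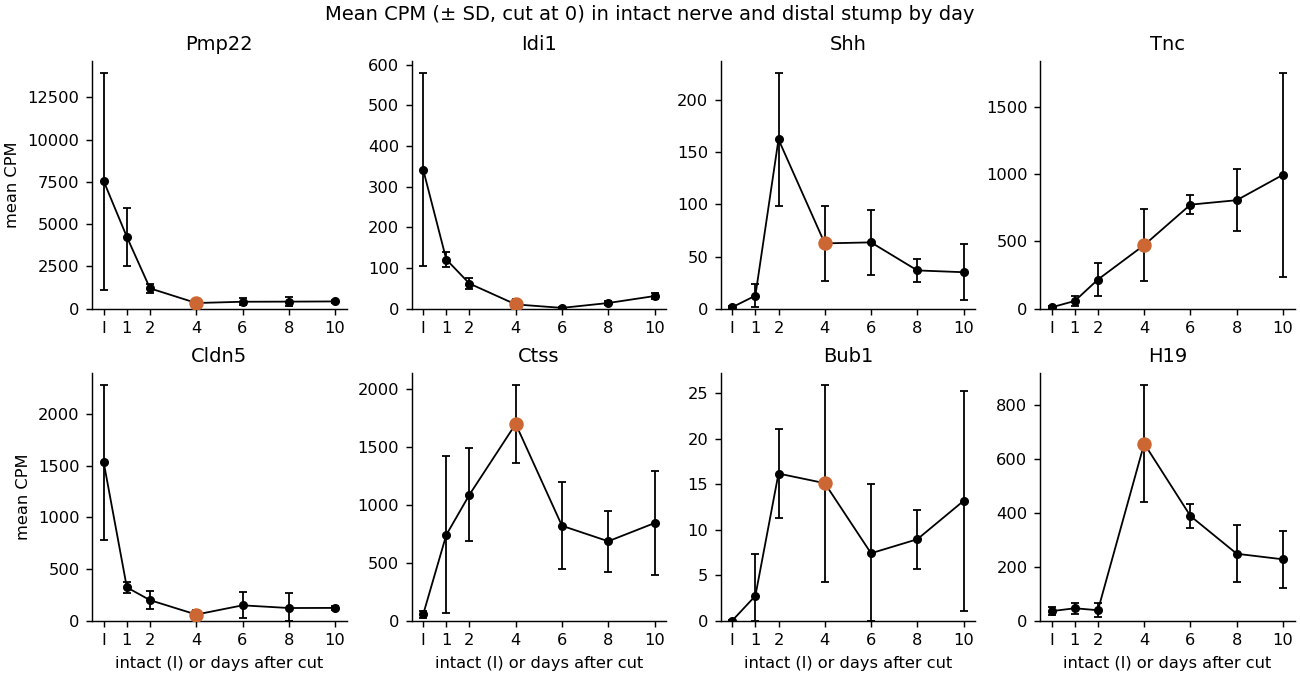
Mean CPM with its SD (bars end at 0) of 8 genes in intact nerve (I, n = 5) and in the distal stump at the 6 times from day 1 to day 10 (n = 3 each), with day 4 in orange. The means of Pmp22, Idi1 and Cldn5 lie below that of intact nerve from day 1 on, which was not tested for day 1. For Pmp22 they are 7546 ± 6414 CPM in intact nerve and 4251 ± 1714 CPM at day 1, so that the SDs overlap. The mean of H19 stays near its intact level until day 2 and stands at 658 CPM at day 4.

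The pooled libraries of the series, 4 of intact nerves and 4 of distal stumps at day 6, share no library with the comparison above and offer a second look at its members. There, 732 of 13751 genes (5.32%) passed the same test. Of the 188 genes higher at day 4, 186 (98.94%) were also higher in the pooled distal stumps and 62 passed there, which is 32.98% of the day 4 list and 17.13% of the 362 genes that rose in the pools. Of the 80 lower genes, 79 were tested, 75 of these (94.94%) were lower and 27 passed, which is 33.75% of the day 4 list and 7.30% of the pooled one. Over all genes tested in both, 62.87% had the same direction, and no gene of the day 4 lists passed in the opposite one. Time after the cut and pooling differ between the experiments. Tnc (log2 difference 7.10, edgeR adjusted p = 0.000118), Fbn2 (5.04), Pmp22 (-5.60) and Idi1 (-5.44) passed in the pools. Of the macrophage list, Cd68 (3.08, adjusted p = 0.0254), C1qa (2.93, 0.0370) and C1qc (2.71, 0.045) passed in the pools, and no other member did. The macrophage genes Ctss (3.13, adjusted p = 0.0814), Lyz2 (3.01, 0.0555), C1qb (2.66, 0.0846) and Itgam (1.86, 0.480) kept their sign with smaller differences and did not pass. Of the genes that fell, Cldn1 (0.15, 0.957), Dcn (-0.05, 0.983) and F11r (-0.32, 0.867) did not pass there either. Egr2 (-3.43, 0.000583), Sox10 (-1.46, 0.0471) and Erbb3 (-2.12, 0.0454), whose groups overlapped at day 4, passed as lower in the pools. S100b (-1.24, 0.408) and Pou3f1 (-0.87, 0.776), which overlapped as well, did not pass in the pools.

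**Figure D5:**
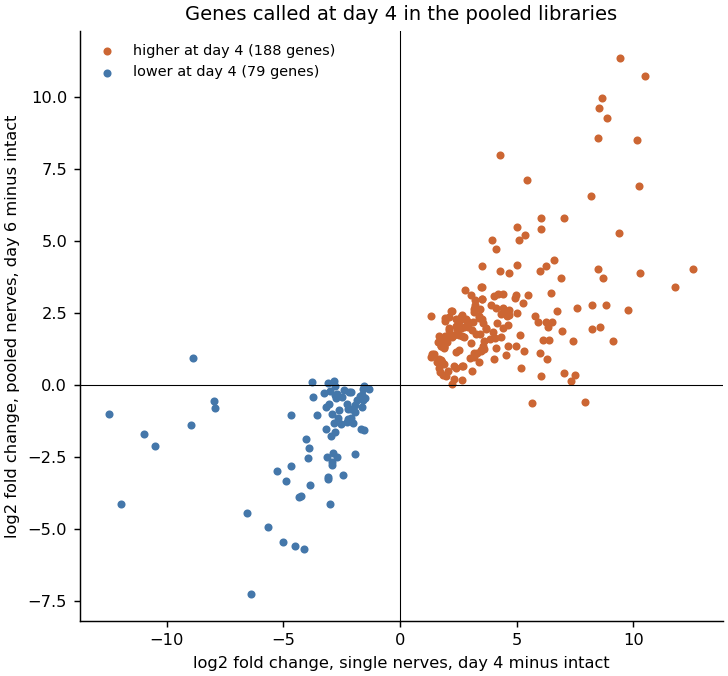
Log2 difference of the genes called at day 4 (single nerves, day 4 minus intact, horizontal axis) against the same genes in the pooled libraries (day 6 minus intact, vertical axis), in orange for the 188 higher and in blue for the 79 lower genes tested in both. Of the orange points 186 lie above 0 and of the blue points 75 lie below 0.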

How the data were processed

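RNA of sorted tdTomato-positive cells was measured by Smart-seq2 RNA-seq in single nerves, and each library came from another animal within its group. The authors aligned the reads with TopHat2 2.0.11 to mm9, counted reads per gene with HTSeq, and deposited raw counts without normalization. Here lanes of one library were summed, and the categories of HTSeq that name no gene and the ERCC spike-ins were set aside. Between 41.3% and 45.2% of the uniquely aligned reads of the 8 libraries fell on genes.

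Tests used edgeR 4.0.16 (quasi-likelihood, TMM, its filter on low counts by group, Benjamini-Hochberg) in one fit of all 35 single-nerve libraries in 11 groups, in R 4.3.3. The pooled libraries had a fit of their own. Of 24016 genes, 8497 were not tested. CPM was computed with library sizes multiplied by their TMM factors, and fold changes are those of the fit with their SE. The floor under genes without a count was 3 counts per library. The code was tested on simulated data first.

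The members and gene lists were chosen with earlier results of these data known. The rule for named genes took the 12 largest increases and the 12 largest decreases among genes that passed, did not overlap between groups and had a mean of at least 10 CPM in the higher group, up to 4 members with the smallest p per list and direction, and a fixed set of known SC genes. Not every one is given, and a gene given with no value of its own only completes a count. Coordinates of genes come from GENCODE's annotation of NCBIM37, which is mm9, and promoters are those of RefSeq on GRCm38.p6. Some eligible genes are not reported here. Of the 91 genes with values, 20 have exons that overlap another gene. The study first removed single-nerve data sets with few detected genes and kept 4 intact nerves. The one left out is not given in the sources used here, and all 5 were used. Alternatives were DESeq2 1.42.0, its size factors, no filter, the filter of the study (at least 100 counts in 85% of libraries), only the groups compared, a replicate block, limma 3.58.1 voom with quality weights, leaving out libraries and, chosen after seeing the data, the level of Xist as a covariate.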

Additional observations from a re-analysis of the deposited data

Results flagged for a closer look

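A library far from the others of its group was looked for with Dixon's ratio over the 5 intact libraries, in 91 genes and library measures, and 23 were found. Chance flags about 1 in 20 groups of normally distributed values, a rate that does not hold for levels near 0, and a gene with counts in only 1 library reaches the highest ratio by construction, as Olig1, Bub1, Cxcl5, Ciita and Cd79b did. The day 4 group of 3 was not searched. Intact replicate 4 was the far library for Prx (579 CPM, others 195 to 274), Sox10 (107, others 21.1 to 40.0), Ncam1 (332, others 11.6 to 96.5), L1cam (73.7, others 0 to 18.8), Gdnf (2.65, others 0 to 0.102), Runx2 (3.67, others 0 to 0.306) and Sema4f (2.14, others 0 to 0.211), and held the only counts of Olig1 (0.0509 CPM), Bub1 (0.0509), Cxcl5 (0.0509) and Ciita (0.153). Intact replicate 0 was the far one for Pllp (2920 CPM, others 82.3 to 805), Fdps (736, others 89.9 to 220), Sox2 (11.9, others 0 to 2.60), Hexa (399, others 226 to 266) and Gabarapl1 (523, others 138 to 223). Intact replicate 5 was the far one for Lyz2 (665 CPM, others 86.3 to 176), Itgam (4.08, others 0 to 1.12), Slc37a2 (0.714, others 0 to 0.102) and Cd79b (0.0510, others 0). Intact replicate 3 was the far one for Mki67 (50.5 CPM, others 0 to 1.53), Top2a (65.3, others 0 to 9.84) and Tgfb1 (1.58, others 0 to 0.255).

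H19 differed between day 4 and day 2 of the distal stump by a log2 difference of 4.07 (edgeR's quasi-likelihood test with Benjamini-Hochberg adjustment, adjusted p = 0.0281), with all 3 day 4 libraries above the mean of day 2.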

How the results depend on the processing

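Against the 268 genes called between day 4 and intact, DESeq2 called 1471 (634 higher, 837 lower, against 188 and 80), voom with quality weights 818 (457 higher, 361 lower), the fit of only the 2 groups 43, and the fit with the level of Xist, an alternative chosen after seeing the data, 32. Past 2.5-fold the counts were 267, 1397, 777, 43 and 32 in that order. Called members of the gene lists numbered 84, and then 216, 152, 20 and 14, with 53 without intact replicates 0 and 1. Leaving out 1 library at a time gave 95 to 296 calls, 95 to 294 past 2.5-fold and 37 to 93 list members. The counts without day 4 replicates 0, 1 and 2 were 179, 134 and 95, with 52, 48 and 37 list members. For day 4 against day 2 the call of 1 gene became 354 with DESeq2, 100 with voom, 2 with only the 2 groups and 0 to 1 without single libraries, and for day 6 against day 4 the count of 0 became 259 with DESeq2 and 1 with voom and was 0 without each library. In the pooled libraries DESeq2 called 1393 genes against 732, and single omissions gave 311 to 1014, with fewer than 500 without intact replicate 1, 2 or 4 (311, 317 and 355) or distal replicate 1, 2 or 5 (439, 387 and 338) and the most without intact replicate 5. The cause of these shifts was not tested. Size factors, no filter and the filter of the study gave 272, 290 and 340 calls, and all of the 268 genes fitted under any alternative kept their direction.

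The numbers 0 and 1 occur in both groups, yet same-numbered libraries did not come from one animal, and the correlation of their deviations from the group means was -0.07 for number 0 and 0.12 for number 1, against -0.003 on average for other pairs. With the number as a replicate block, 340 genes were called, 186 of them shared with the main 268, the median of all genes moved to 0.36, and the pooled count was 287.

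The difference in genes detected ranged from -219 to 1035.5 without single libraries, around 464.2. Among genes that did not pass, the sign of the log2 difference turned for Sox10 (-0.047 with the filter of the study, -0.17 without intact replicates 0 and 1, -0.019 with voom, -0.48 with Xist, -0.27 to 0.67 without single libraries), S100b (-0.34 with the block, -0.38 with Xist, -0.13 to 0.55), Jun (-0.45 without intact replicates 0 and 1, -0.33 with voom, -0.21 with Xist, -0.14 to 0.46), Myc (-0.17 without intact replicates 0 and 1, -0.31 with voom, -0.36 to 0.86) and Erbb3 (-0.35 to 0.90). The ratio of spike-ins to genes and its alternatives were not run, because the 8 libraries held 0 to 126 spike-in counts each and 5 held none. The 3 day 4 libraries limit the power of the test, and depth was 9240883 counts or more.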

Other observations

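The lists of neuron, adipocyte, skeletal muscle and erythroid genes held no call. The 9 neuron genes summed to 17.5 to 87.3 CPM in intact libraries and 71.8 to 163.9 CPM at day 4, with the neurofilament genes Nefl and Nefh, the synaptic gene Snap25 and the neuronal splicing factor Rbfox3 at 0 in all day 4 libraries. The adipocyte genes summed to 73.4 to 1364 CPM and 20.5 to 115.2 CPM, with overlap. Skeletal muscle genes were at most 10.6 CPM in sum and erythroid genes at most 3.77 CPM in any library. The 9 genes of the Remak SC list summed to 1642 to 4022 CPM in intact libraries and to 4866, 16301 and 9213 CPM at day 4, of which Apod alone, a lipid carrier that did not pass (edgeR adjusted p = 0.337), was 3460, 15378 and 7690 CPM. Without Apod the sums overlapped, at 551.9 to 2167 CPM in intact libraries and 922.7 to 1524 CPM at day 4.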
